A study of Mus musculus with 4 samples.

Results

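The replication-dependent core histone genes of the mouse were described in spermatogonia-enriched testis cells with and without SIRT7. Members were all genes of the count table whose GRCm39 symbol consisted of H2ac, H2bc, H3c or H4c followed by a number. This rule found 62 of the 78275 genes. They comprised 18 H2A, 19 H2B, 12 H3 and 13 H4 genes, of which 48 lay on chromosome 13, 10 on chromosome 3, 3 on chromosome 11 and 1, H4c16, on chromosome 6.

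RNA-seq had been carried out on 2 libraries from Sirt7-/- mice (labelled KO) and 2 libraries from wild-type (WT) mice, all at postnatal day (Pnd) 5 and on the 129S1/Sv background. Sirt7-/- is a knockout of the whole animal, and the sources used here name no Cre line. Each library was made from a frozen pellet of 200000 testis cells that had been enriched for spermatogonia by differential plating and had not been sorted. The study asked whether loss of SIRT7, a nuclear deacetylase whose substrates include lysine 36 of histone H3, goes with altered transcription in these cells. The study describes the libraries of a genotype as independent biological replicates, while the labels only number them. How many animals went into a pellet for RNA was not stated.

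Core histones form the protein core of the nucleosome, around which DNA is wrapped. The genes examined here supply them mainly in S phase, when newly copied DNA must be packed. Their transcripts have a special 3' end. In place of a poly(A) tail, most end just after a short stem-loop that is bound by the stem-loop binding protein SLBP, and the cut is guided by the U7 small nuclear RNA. The replacement histones, such as H3.3 and H2A.Z, are made throughout the cell cycle from ordinary polyadenylated transcripts. The libraries here were prepared with a strand-specific mRNA kit, so that transcripts without a poly(A) tail may be under-represented in them. How mRNA was selected was not stated, and its part in the levels below was not tested.

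The 3' stem-loop was searched for in the GRCm39 sequence, as GGC, any base, CTTTT, any base, AG, any base and GCC (16 letters, sense strand only), within 150 bases after the annotated stop codon. It was found in 56 of the 62 members, and in 65 of all 21665 protein-coding genes searched (0.3%). The 9 other genes with a match were also histone genes: the linker histones H1f1 to H1f6, and H2ax, H2bw2 and H3f4. The members shared 5 spellings of the stem-loop. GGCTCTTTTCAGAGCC occurred in 37 members, of the H2A, H2B and H3 classes. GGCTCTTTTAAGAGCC occurred in 8, of the same classes, and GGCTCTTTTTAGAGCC in H2ac20 alone. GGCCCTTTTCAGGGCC occurred in 8 members and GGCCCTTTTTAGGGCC in 2, all of them H4 genes. The following are shown because the counts below turn on these genes. They run 5' to 3' on the gene's strand, and the 16 letters of the stem-loop are in capitals.
H2bc4 (chr13:23868625-23868650, plus strand): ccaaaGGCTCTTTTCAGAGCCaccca
H2bc11 (chr13:22227803-22227828, plus strand): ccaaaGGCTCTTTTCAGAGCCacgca
H2bc12 (chr13:22220465-22220490, plus strand): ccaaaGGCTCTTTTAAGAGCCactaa
H2bc23 (chr13:21993911-21993936, minus strand): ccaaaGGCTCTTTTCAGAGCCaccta
H2bc24 (chr13:22018346-22018371, plus strand): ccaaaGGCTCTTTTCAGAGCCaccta
H3c15 (chr3:96145796-96145821, minus strand): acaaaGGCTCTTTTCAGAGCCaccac
H4c9 (chr13:22225131-22225156, minus strand): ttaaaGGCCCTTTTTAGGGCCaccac
H4c4 (chr13:23765928-23765953, plus strand): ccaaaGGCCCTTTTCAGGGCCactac
No match was found in H2ac22, H2bc21, H3c8, H4c1, H4c11 and H4c2, which says only that these letters are not in that window.

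As SIRT7 acts on lysine 36 of H3, the coding sequence around this position was read from all 12 H3 members. Position 36, counted from the residue after the initiator methionine, was AAG, a lysine codon, in each. Position 96 held a cysteine codon in H3c1, H3c8, H3c10 and H3c11 and a serine codon in the other 8, the difference by which H3.1 and H3.2 proteins are told apart. A copy from each of the main clusters is shown, with codon 36 in capitals (GRCm39, 5' to 3').
H3c10 (chr13:21901925-21901951, plus strand, cysteine at 96): accggcggcgtgAAGaagcctcaccgc
H3c15 (chr3:96146135-96146161, minus strand, serine at 96): acgggcggcgtgAAGaagccgcaccgc

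The members were measured at very low levels in all 4 libraries. Total counts were 22181066 and 22048692 in the Sirt7-/- libraries and 22007504 and 22114233 in the WT libraries. Over all 62 members, the sum was 1062 and 1016 counts in the Sirt7-/- libraries, against 978 and 820 counts in the WT libraries. As shares of all counts these were 0.00479% (exact Clopper-Pearson 95% interval, 0.0045 to 0.00508%) and 0.00461% (0.00433 to 0.0049%) in Sirt7-/-, against 0.00444% (0.00417 to 0.00473%) and 0.00371% (0.00346 to 0.00397%) in WT. These intervals cover counting error only, since reads without molecular identifiers are not independent molecules. The median member had 8 and 10 counts in the Sirt7-/- libraries and 7.5 and 5 counts in the WT libraries. In bulk samples, fewer cells of a type and less RNA per cell cannot be told apart.

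Of the 62 members, 45 had 10 or more counts summed over the 4 libraries (12 H2A, 14 H2B, 10 H3 and 9 H4). By library, 35 members had 10 or more counts in at least 1 library and 24 had them in every library. Only H2bc4 had 100 or more counts in any library. No counts were listed in any library for 7 members: H2ac18, H2ac19, H2bc18, H3c13, H3c14, H4c2 and H4c8. With 3 counts as the limit that a count of 0 allows in each library, these zeros allow up to 0.135 to 0.136 CPM (counts per 1000000, in libraries scaled with TMM factors) of reads assigned to the gene. This covers counting error only, and it sets no limit on the transcript, since all 7 overlap other annotated genes and reads in shared exons may not have been assigned to them.

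**Figure D1:**
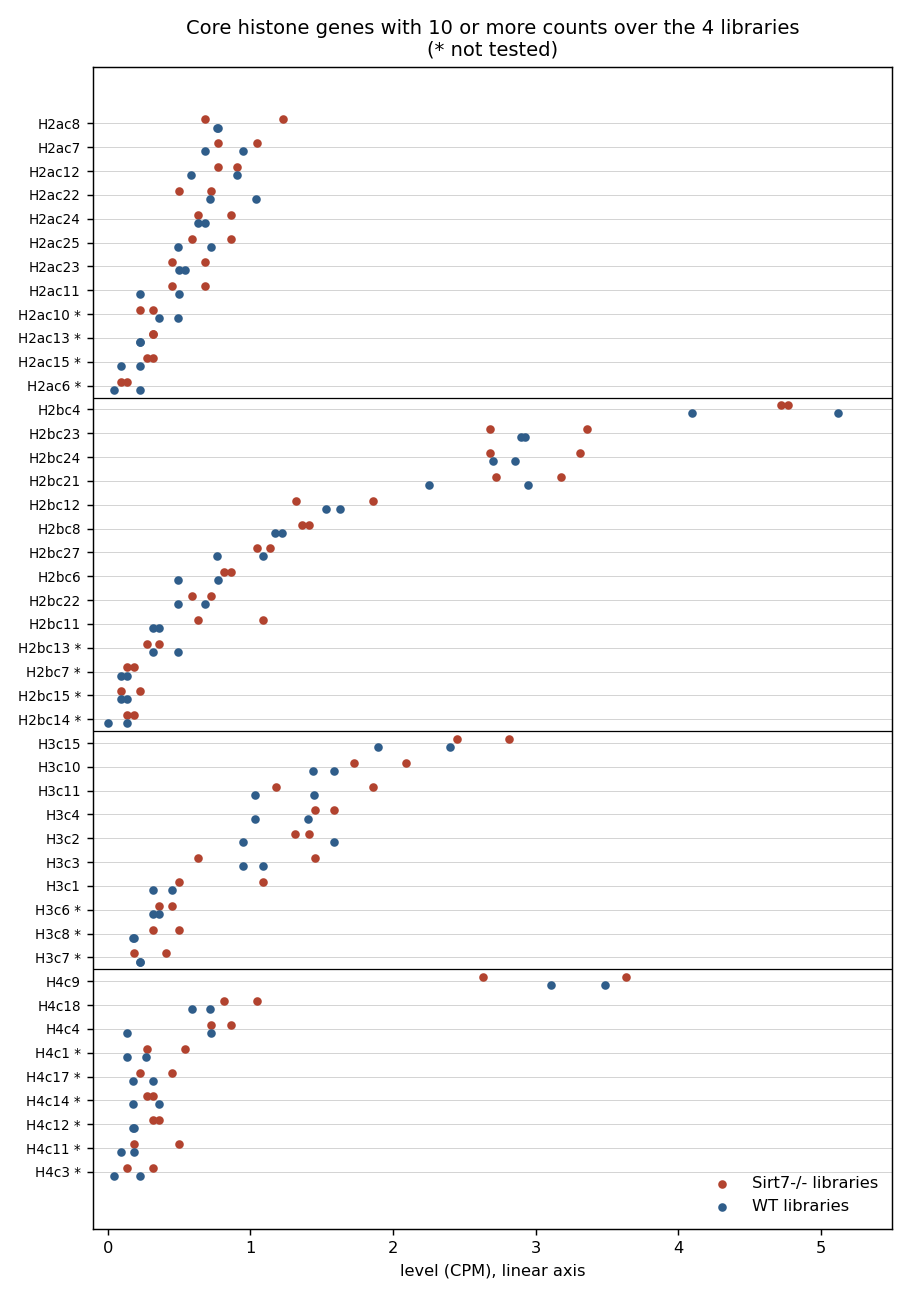
Level in CPM (linear axis) of each of the 45 members with 10 or more counts over the 4 libraries, by class and in order of mean level; each point is a library, Sirt7-/- in red above WT in blue, and a star marks a member that was not tested. H2bc4 leads the H2B genes and H4c9 the H4 genes, and every H2A gene lies to the left of both.

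A small number of genes carried most of the counts. H2bc4 held 10.7% of all member counts, the first 5 members (H2bc4, H4c9, H2bc23, H2bc24 and H2bc21) 37.6% and the first 10 members 56.9%. By class, H2B genes took 45.8% of member counts, H3 genes 24.4%, H2A genes 15.5% and H4 genes 14.3%. These shares are of counts and not of levels per length. Per kilobase of annotated exon, the mean level over the 4 libraries was 4.42 RPKM for H4c9, 4.16 for H3c10, 3.36 for H3c11 and 3.33 for H2bc12, against 1.51 for H2bc4, whose annotated exons add up to 3088 bases.

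H2bc4, an H2B gene (chr13:23867631-23878163, plus strand, GRCm39), had 104 and 105 counts in Sirt7-/- and 113 and 91 counts in WT. The WT libraries lay on either side of the Sirt7-/- ones. H2bc23 had 74 and 59 counts in Sirt7-/- and 64 and 65 counts in WT. H2bc24 had 73 and 59 counts in Sirt7-/- and 63 and 60 counts in WT, so that these H2B genes had nearly the same count in each library. They are near-identical copies. Of the 1627 windows of 150 bases (the read length) in the exons of H2bc23, 1627 were found letter for letter in H2bc24, and 89.0% of the windows of H2bc24 were found in H2bc23. Counts of this pair are therefore uncertain gene by gene. Whether a read that aligns to both genes was counted in each of them was not stated. The sums and shares given here that hold both genes may therefore include the same reads in both.

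Among H3 genes, H3c15 had 54 and 62 counts in Sirt7-/- and 53 and 42 counts in WT. H3c10 had 38 and 46 counts in Sirt7-/- and 35 and 32 counts in WT. H3c11 had 26 and 41 counts in Sirt7-/- and 32 and 23 counts in WT. Both Sirt7-/- libraries lay above both WT libraries for H3c15 and H3c10, and the groups overlapped for H3c11. Among H4 genes, H4c9 had 80 and 58 counts in Sirt7-/- and 77 and 69 counts in WT, with full overlap. H4c18 had 18 and 23 counts in Sirt7-/- and 13 and 16 counts in WT. H4c4 had 19 and 16 counts in Sirt7-/- and 16 and 3 counts in WT, where the low value came from WT replicate 2.

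The most abundant H2A genes had lower counts than H2bc4, H3c15 and H4c9, although as a class H2A had more counts than H4 in every library. H2ac8 had 15 and 27 counts in Sirt7-/- and 17 and 17 counts in WT. H2ac7 had 23 and 17 counts in Sirt7-/- and 15 and 21 counts in WT. H2ac12 had 20 and 17 counts in Sirt7-/- and 20 and 13 counts in WT. The groups overlapped for each of them. The testis-specific pair H2ac1 and H2bc1, which encode histones of meiotic and later germ cells, was barely detected in these libraries. H2ac1 had 0 and 0 counts in Sirt7-/- and 1 and 1 counts in WT, and H2bc1 had 0 and 2 counts in Sirt7-/- and 1 and 1 counts in WT. Other members were about as low, such as H4c6 with 1 and 0 counts in Sirt7-/- and 1 and 2 counts in WT. The part of age in these counts was not tested.

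Summed levels, to which every member contributes, were close between genotypes. Over the 62 members the sum was 48.2 and 46.1 CPM in Sirt7-/- and 44.3 and 36.9 CPM in WT, or 47.2 ± 1.45 against 40.6 ± 5.22 CPM (SD, n = 2 each). The ratio of Sirt7-/- to WT was 1.16, or 0.22 on the log2 scale, beside a within-group SD of 0.135 on that scale. The libraries of the groups did not overlap, but WT replicate 1 lay nearer to the Sirt7-/- libraries than to WT replicate 2, and without WT replicate 2 the log2 ratio was 0.0912. Without WT replicate 1 it was 0.3553. The direction was the same in every class. H2A genes summed to 7.17 ± 0.317 CPM in Sirt7-/- and 6.39 ± 0.697 CPM in WT. H2B genes summed to 21.2 ± 1.02 CPM in Sirt7-/- and 19 ± 1.71 CPM in WT. H3 genes summed to 11.9 ± 0.122 CPM in Sirt7-/- and 9.53 ± 1.70 CPM in WT, and H4 genes to 6.90 ± 0.00369 CPM in Sirt7-/- and 5.65 ± 1.11 CPM in WT. Every class was lowest in WT replicate 2. The H3 genes with cysteine at position 96 summed to 4.63 ± 0.452 CPM in Sirt7-/- and 3.32 ± 0.493 CPM in WT, and those with serine to 7.26 ± 0.574 CPM in Sirt7-/- and 6.21 ± 1.21 CPM in WT.

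**Figure D2:**
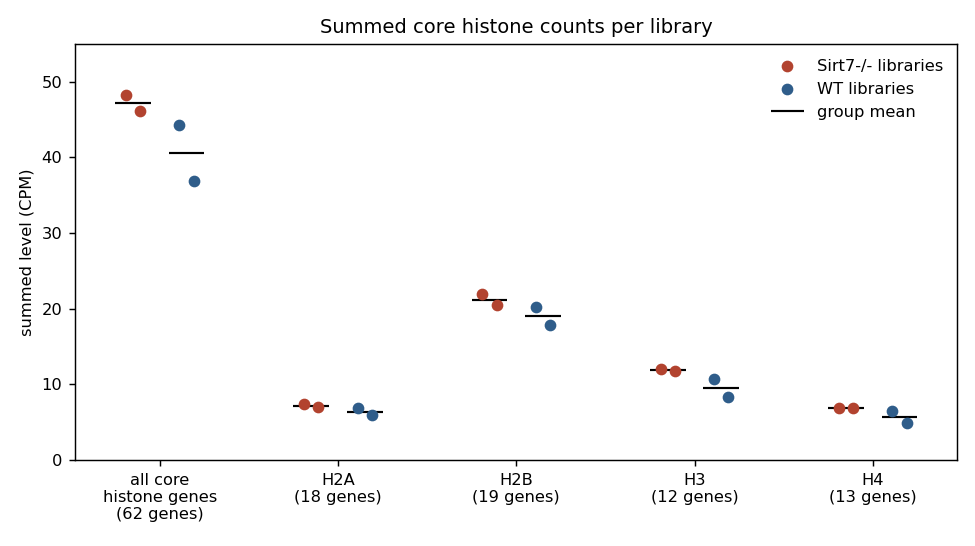
Summed level in CPM of all 62 members and of each class; each point is a library, Sirt7-/- in red to the left of WT in blue, and the black line is the mean of the 2 libraries. For all members the Sirt7-/- libraries sit at 48.2 and 46.1 CPM and the WT libraries at 44.3 and 36.9 CPM, and in every class the lowest point is WT replicate 2.

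No core histone gene was called between the genotypes. The filter on low counts left 28 members in the test (8 H2A, 10 H2B, 7 H3 and 3 H4), and 34 were not tested, 27 of which had some counts. At an adjusted p under 0.1 (quasi-likelihood test of edgeR, Benjamini-Hochberg over 19736 genes), 0 of the 28 were called, against 0.0861% of all genes tested, and the smallest adjusted p of a member was 0.466. At an unadjusted p under 0.05, 1 member was higher in Sirt7-/- and 0 were lower, where 4.48% of all genes tested were higher and 4.14% lower (8.62% in either direction). DESeq2 also called 0 members, with 0 at an unadjusted p under 0.05, and 49 of the 55 members with counts had no adjusted p there. DESeq2 called 0.335% of the genes with an adjusted p.

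The member with an unadjusted p under 0.05 was H2bc11, an H2B gene (chr13:22227384-22227846, plus strand). It had 24 and 14 counts in Sirt7-/- and 8 and 7 counts in WT, and its log2 fold change was 1.33 ± 0.44 (± SE here and below, edgeR adjusted p = 0.466). It entered the test only through its Sirt7-/- libraries, since both WT libraries were under 10 counts. The next largest difference was that of H3c1, with 24 and 11 counts in Sirt7-/- and 10 and 7 counts in WT and a log2 fold change of 1.04 ± 0.48 (edgeR adjusted p = 0.582). For H2bc11 and H3c1 the higher Sirt7-/- count was that of replicate 1. H4c4 came next at 0.88 ± 0.55, and this value was 0.1319 without WT replicate 2. The most negative value was that of H2ac22, an H2A gene with 16 and 11 counts in Sirt7-/- and 23 and 16 counts in WT, at -0.52 ± 0.38 (edgeR adjusted p = 0.736). H4c9 was the other negative one, at -0.07 ± 0.21.

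The most abundant members did not pass the test either. The log2 fold change was 0.04 ± 0.18 for H2bc4, 0.05 ± 0.20 for H2bc23, 0.11 ± 0.21 for H2bc24, 0.29 ± 0.23 for H3c15, 0.33 ± 0.25 for H3c10, 0.29 ± 0.32 for H3c11 and 0.50 ± 0.35 for H4c18. For H2A genes it was 0.16 ± 0.35 for H2ac7, 0.31 ± 0.37 for H2ac8 and 0.17 ± 0.36 for H2ac12. In H2bc4, H2bc23, H2bc24, H3c11 and these H2A genes the error was larger than the value.

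Across the members, small positive values were more frequent than negative ones. Of the 28 tested, 26 had a positive and 2 a negative log2 fold change, with a median of 0.20, where 50.6% of all genes tested were positive with a median of 0.00. Both Sirt7-/- libraries lay above both WT libraries in 9 of the 28, where this held for 20.3% of all genes tested, and below them in 0, where this held for 19.4% (39.7% in either direction). In H4c4 of these 9, the order came from the scaling of equal counts of 16. Over the 55 members with counts, tested or not, the Sirt7-/- mean was above the WT mean in 48 and below it in 7. Of these 55, 27 were under the filter on low counts, where a few reads set the direction. The share over all genes with counts was not taken. These counts describe the lists, and no chance level is attached to them, because the members are not independent of each other: they share sequence, and they share the same 4 libraries. WT replicate 2 was the lowest of the 4 libraries for 18 of the 28 tested members and the highest for 0. Among all genes tested it was the lowest for 23% and the highest for 21.9%. Sirt7-/- replicate 1 was the highest for 15 of the 28, where it was the highest for 27.6% of all genes tested. Short genes as a class also tended to positive values. Among 1754 tested genes with under 1000 bases of annotated exon, to which 19 of the 28 members belong, the median log2 fold change was 0.07 and 61.1% were positive. Genes of low level did not share this direction: among 7748 tested genes at or below the highest member mean of 4.68 CPM, the median was -0.03. The parts of transcript length and of level in the members' values were not tested.

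**Figure D3:**
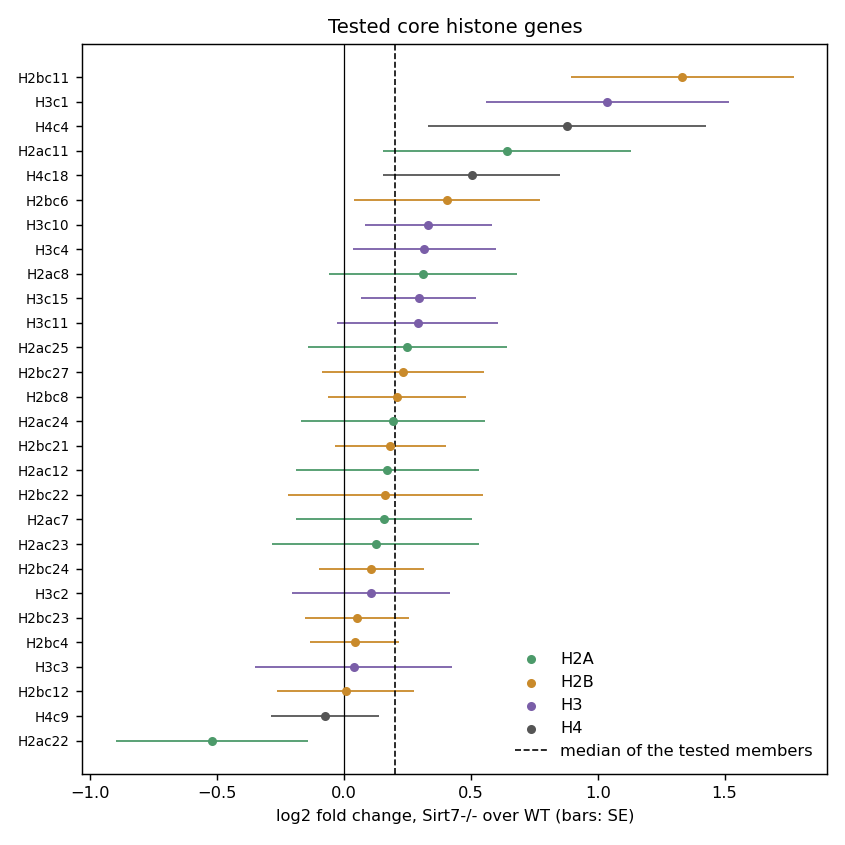
Log2 fold change, Sirt7-/- over WT, of the 28 tested members with SE bars, coloured by class; the solid line is 0 and the dashed line the median of the tested members, 0.20. H2bc11 lies farthest to the right at 1.33 and H2ac22 farthest to the left at -0.52, and most bars reach or come near to 0.

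Members were also grouped by where their annotated exons end. In 22 members the annotated exons ran over 100 bases past the stem-loop, and these held 56.3% of member counts with a median of 57 counts over the 4 libraries. Another 19 members ended within 100 bases past the stem-loop and held 21.0% of member counts, 15 ended before the last base of the stem-loop and held 12.7%, and the 6 without a match held 9.93%. Per length the order was different, with a median of 0.492 RPKM in the extended group and 0.958 RPKM in the group that ended close to the stem-loop. Longer exons collect more counts at the same level. The annotation used for lengths was GENCODE M39, and 53 of the 62 members had the same identifier version in the count table.

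Overlap with other annotated genes and sequence shared between copies also differed among members. More than 50% of exon bases were overlapped by another annotated gene in 12 members, and all 7 members at 0 counts were among these 12. None of the other 50 members was at 0. The overlapping genes ranged widely in counts. Gm20632, which overlaps H2ac19 on the opposite strand, had 39 and 63 counts in Sirt7-/- and 72 and 52 counts in WT. Gm42743, which overlaps H2bc18 on the same strand, had 10 and 14 counts in Sirt7-/- and 14 and 12 counts in WT. Gm20634, which overlaps H2ac18 and H3c14 on the same strand, had 8 and 11 counts in Sirt7-/- and 9 and 16 counts in WT. The only partner of H3c13, Gm20628, had 3 and 1 counts in Sirt7-/- and 1 and 3 counts in WT. The partner of H4c8, Gm11335, had 2 and 0 counts in Sirt7-/- and 0 and 0 counts in WT, and that of H4c2, 4930558J22Rik, had 0 and 1 counts in Sirt7-/- and 0 and 0 counts in WT, so that these members and their partners were all at or near 0. A read that falls in more than 1 gene can be dropped or assigned to either, depending on counting settings that were not stated. A listed 0 was therefore not read as absence of the transcript. H2ac25, with 71.3% of its exon bases overlapped, still had 13 and 19 counts in Sirt7-/- and 16 and 11 counts in WT.

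**Figure D4:**
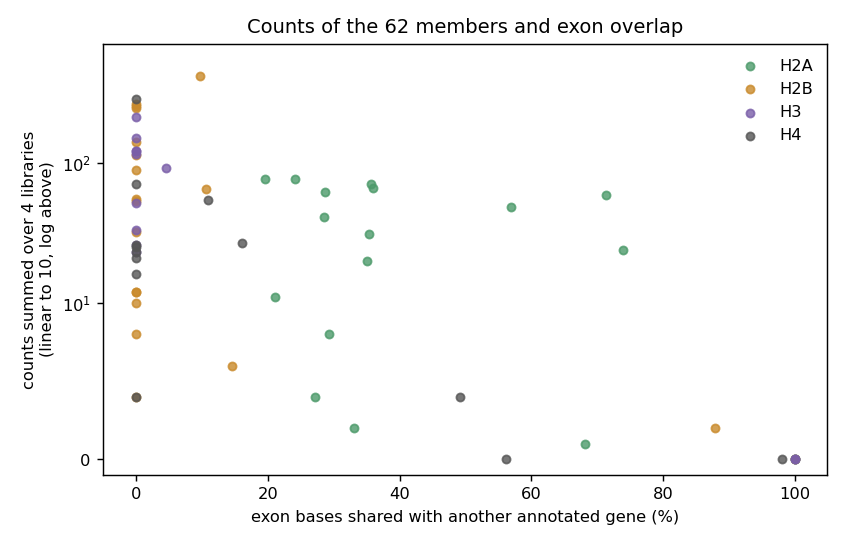
Counts summed over the 4 libraries (linear up to 10, logarithmic above) against the percentage of exon bases shared with another annotated gene, for the 62 members, coloured by class. The 7 members at 0 counts all lie to the right of 50%, 5 of them at 100% where their points coincide.

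Copies were common as well. At least 1 window of 150 bases was found letter for letter elsewhere in the genome for 50 of the 62 members, more than 50% of windows were for 20 members, and all windows were for 5 (H2ac19, H2ac23, H2ac24, H2bc23 and H2bc24). Restricted to the 42 members with at most 50% of windows copied, the sum was 27.1 ± 0.563 CPM in Sirt7-/- and 22.7 ± 3.93 CPM in WT (SD, n = 2 each), a log2 ratio of 0.25.

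Many H2A and H2B genes stand head to head and share a promoter region. There were 13 such divergent pairs with starts within 1000 bases of each other. More counts fell on the H2B gene in 9 pairs and on the H2A gene in 4, and the level per length was higher for H2B in 8 and for H2A in 5. Per length, the ratio was largest for H2bc4 over H2ac6 (1.51 against 0.0502 RPKM), whose annotated starts overlap by 301 bases. H2ac6 had 3 and 2 counts in Sirt7-/- and 5 and 1 counts in WT, beside the 104 and 105 counts in Sirt7-/- and 113 and 91 counts in WT of H2bc4. In the pair of H2bc11, H2ac11 had 15 and 10 counts in Sirt7-/- and 11 and 5 counts in WT, with a log2 fold change of 0.64 ± 0.49. Motifs were searched in the 300-base promoters of RefSeq (GRCm38.p6, 250 bases before and 50 after the start, 52 member symbols matched). A gene was counted if any of its promoters matched. TATAAA was found on either strand in 57.7% of members and in 15.7% of all 27025 genes. CCAAT, searched separately on either strand, was found in 84.6% of members and in 41.1% of all genes. Both occurred in the same promoter in 46.2% of members and in 6.21% of all genes. A match is a description of the letters and not of a bound factor.

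The main replacement histone genes were far more abundant than the core members in these libraries, although not every gene of that list was. H3f3a and H3f3b, which encode H3.3, together had 25473 and 26361 counts in Sirt7-/- and 24991 and 24160 counts in WT, whereas the 12 H3 members had 264 and 260 counts in Sirt7-/- and 237 and 185 counts in WT. Per length, summed RPKM of the H3.3 genes was 18 and 18.2 times that of the H3 members in Sirt7-/- and 19.6 and 24.2 times in WT. For H2az1, H2az2 and H2ax against the H2A members, the ratio was 15.3 and 16.9 in Sirt7-/- and 16.7 and 17.7 in WT. The other replacement genes were lower per length. Length here joins the exons of all annotated transcripts of a gene, which came to 13355 bases for Cenpa. RPKM may therefore understate genes with many annotated transcripts. Macroh2a2 averaged 30.7 RPKM, Macroh2a1 9.89 RPKM, H2aj 8.77 RPKM and Cenpa 8.55 RPKM. H3f5, at 1.19 RPKM, lay below several core members. In CPM, which is not divided by exon length, Cenpa (114), Macroh2a2 (95.6) and Macroh2a1 (93.2) were above H2ax (55.8). Since the libraries may under-represent transcripts without a poly(A) tail, these ratios are of what the kit recovered. Of the linker histones that hold the same stem-loop, H1f2 was well above the core members, with 407 and 435 counts in Sirt7-/- and 461 and 372 counts in WT and a mean of 12.2 RPKM. H1f1, H1f3, H1f4, H1f5 and H1f6 had 0 to 16 counts in each library. H1f0, a linker histone of the replacement type, had 1344 and 1352 counts in Sirt7-/- and 1379 and 1300 counts in WT.

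**Figure D5:**
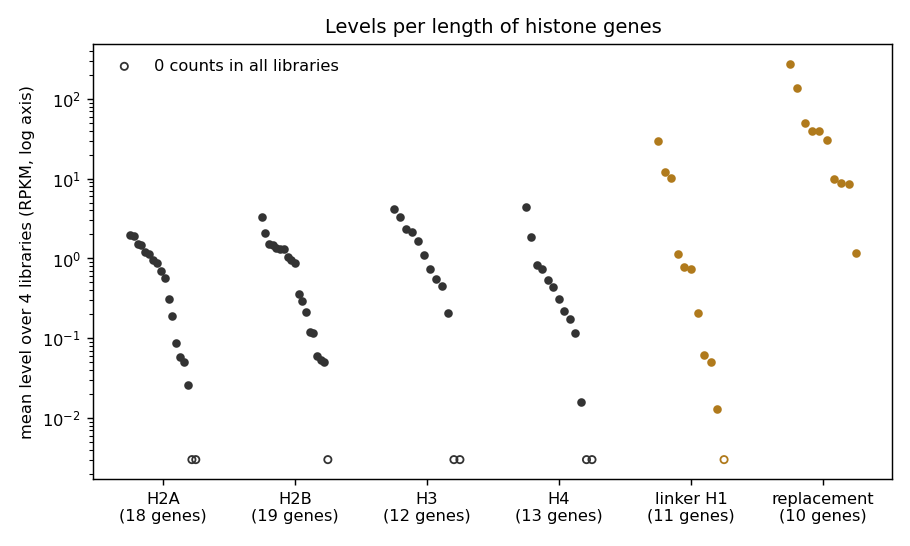
Mean level over the 4 libraries, in RPKM on a logarithmic axis, of every core histone gene by class, of 11 linker histone genes and of 10 replacement histone genes; each point is a gene, and open circles at the bottom mark genes with 0 counts in all libraries. Core members stay at or under 4.42 RPKM (H4c9), while the highest replacement histone gene, H3f3b, is at 277 RPKM.

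None of the genes that act with the core histones was called either. Of 95 tested genes in 5 lists, 0 passed an adjusted p of 0.1 with edgeR or DESeq2. In the edgeR fit, 6 were higher and 1 was lower at an unadjusted p under 0.05, where 4.48% of all genes tested were higher and 4.14% lower (8.62% in either direction), so that the lists were near the background. These counts turned on single libraries. They were 1 higher and 14 lower without Sirt7-/- replicate 1, 30 higher and 1 lower without Sirt7-/- replicate 2, and 0 in either direction without either WT library. Among linker histones, 6 of 11 were tested, with a median log2 fold change of 0.02. The lower gene was H1f10, with 258 and 216 counts in Sirt7-/- and 309 and 313 counts in WT, a value of -0.38 ± 0.12 (edgeR adjusted p = 0.463). H1f8, known as an oocyte linker histone, had 30 and 21 counts in Sirt7-/- and 40 and 31 counts in WT. The 10 replacement histone genes had a median of 0.12. The higher ones among them were H2az2, which encodes a form of H2A.Z, at 0.17 ± 0.07 (edgeR adjusted p = 0.518), and H3f3a at 0.14 ± 0.06 (edgeR adjusted p = 0.546). H3f3b was at 0.06 ± 0.06.

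The 26 genes of histone mRNA synthesis and processing, which include the SLBP and U7 factors, had a median of 0.02 with 2 higher and 0 lower at an unadjusted p under 0.05, again near the 8.62% of all genes tested that passed in either direction. The higher ones were Coil, which encodes coilin of Cajal bodies, at 0.26 ± 0.11 (edgeR adjusted p = 0.541), and Snrpg, which encodes a core protein of small nuclear ribonucleoproteins, at 0.16 ± 0.06 (edgeR adjusted p = 0.528). Snrpb was at 0.12 ± 0.06 and Srrt, a partner of the cap-binding complex, at -0.02 ± 0.06. Of 21 histone chaperones, Asf1b, which hands H3 and H4 to assembly factors during replication, was at 0.21 ± 0.08 (edgeR adjusted p = 0.521). Atrx was at -0.15 ± 0.07, Rbbp4 at 0.09 ± 0.06 and Npm1 at 0.02 ± 0.07. The chaperones had a median of 0.00.

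S phase genes bear most directly on core histone levels, because the members are transcribed in that phase. The 32 genes of the list had a median log2 fold change of 0.02. In the edgeR fit, 1 was higher at an unadjusted p under 0.05 and 0 were lower. This was near the background of 4.48% higher and 4.14% lower among all genes tested. The gene with the smallest p was Pcna, the sliding clamp of DNA polymerases, with 2293 and 2077 counts in Sirt7-/- and 1989 and 1848 counts in WT, a value of 0.19 ± 0.08 (edgeR adjusted p = 0.511). Gmnn, an inhibitor of replication licensing, was at 0.19 ± 0.10. Mcm2 and Mcm7, subunits of the replicative helicase, were at 0.02 ± 0.08 and 0.02 ± 0.08. Summed over the list, the level was 3630 and 3170 CPM in Sirt7-/- and 3370 and 3320 CPM in WT. The groups overlapped in this sum. The part of cells in S phase in the core histone values was not tested.

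The libraries carried the labels' genotype, and they held markers of spermatogonia beside those of other testis cells. Sirt7 had 129 and 122 counts in Sirt7-/- and 704 and 692 counts in WT, and it fell by 2.47 ± 0.11 on the log2 scale (edgeR adjusted p = 3.63e-06). All 16 spermatogonial markers had 10 or more counts in every library, and their summed level was 2800 to 3120 CPM in Sirt7-/- and 2930 to 3000 CPM in WT. Markers of other testis cells were present too. In each of their lists except that of macrophages, every gene also had 10 or more counts in every library. Presence at this limit therefore does not set spermatogonia apart. Those of Sertoli cells summed to 1880 to 2370 CPM in Sirt7-/- and 2020 to 2080 CPM in WT. Those of stromal fibroblasts summed to 1010 to 1170 CPM in Sirt7-/- and 1140 to 1270 CPM in WT. Myoid markers summed to 495 to 681 CPM in Sirt7-/- and 470 to 544 CPM in WT, and Leydig markers to 84.1 to 93.2 CPM in Sirt7-/- and 78.5 to 89.5 CPM in WT. Endothelial markers summed to 82.4 to 83 CPM in Sirt7-/- and 80.1 to 106 CPM in WT, and macrophage markers to 11.6 to 14 CPM in Sirt7-/- and 12.6 to 16.6 CPM in WT. The groups overlapped for all of these lists. Erythroid markers were at 1150 to 1530 CPM in Sirt7-/- and 921 to 1010 CPM in WT, without overlap and with 10 or more counts of all 5 genes in every library. The part of these cells in the core histone values was not tested.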

How the data were processed

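Reads had been cleaned of adapters, contaminants and low-quality bases by the sequencing provider. The authors then ran HISAT2 against GRCm39 and featureCounts, and they deposited raw counts per gene, as whole numbers, for the 4 libraries. Tool versions, the annotation release, the strand setting and the handling of reads with several alignments or genes were not stated. Counts of similar or overlapping genes can therefore be split, dropped or entered in each of them. Symbols and exon lengths came from GENCODE M39 (78263 of 78275 identifiers matched without their version).

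Sirt7-/- was compared with WT in R 4.3.3 with edgeR 4.0.16, using filterByExpr with a minimum count of 10, TMM factors from 0.994 to 1.00, and the quasi-likelihood F test on genotype alone. Benjamini-Hochberg adjustment ran over 19736 genes, and calls were made at an adjusted p under 0.1. The SE equals the absolute log2 fold change over the root of F. CPM uses TMM-scaled libraries, and RPKM divides it by exon length in kilobases. Exon length is that of the merged exons of all annotated transcripts of a gene. An exact permutation test over samples was not used, since 2 against 2 libraries cannot reach a small p. Alternatives were DESeq2 1.42.0, other scalings, other filters, a stricter threshold of 0.05, a replicate block, and fits without each library. Total counts ran from 22007504 to 22181066, and at this depth most members rest on few reads.

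Members, gene lists and markers were chosen with earlier results of these data known. Named members were those with p under 0.05, the 3 most abundant per class, H2ac1 and H2bc1, and the 2 extreme fold changes in each direction. From each companion list, the 2 most abundant genes and the 2 with the smallest p were named. Other genes named were chosen after their values were seen. H4f16 and Spt2 of the companion lists were not found by symbol. Copies were exact matches of 150-base windows in the GRCm39 genome.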

Additional observations from a re-analysis of the deposited data

How the results depend on the processing

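With 0 core histone genes called in the edgeR fit, the count stayed at 0 under the DESeq2 test, both other scalings, both other filters (none, or 1 CPM in 2 libraries), the threshold of 0.05, the replicate block and each fit without a library. The correlation of same-numbered deviations from the group means was 0.0777. With 2 libraries per group the deviations mirror each other, so this value cannot decide whether same-numbered libraries were prepared together. With the replicate number as a block, 0 members and 0 companion genes were called and the median log2 fold change of tested members was 0.1986. That median, 0.2003 in the reported fit, was 0.1199 to 0.4063 with 1 library left out, the highest without WT replicate 1. It was 0.3043 over 55 members with no filter, many of them with fitted values that rest on a few counts, and 0.1434 over the 14 members past 1 CPM. The log2 ratio of summed CPM ran from 0.0912, without WT replicate 2, to 0.3553, without WT replicate 1. The alternative restricted to members with at most 50% of windows copied was chosen after seeing the data and gave 0.2514. Of the companion genes, 0 to 6 were called with 1 library left out, the 6 without Sirt7-/- replicate 2.

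Leaving out 1 library turned the sign of 8 named members. Their log2 fold changes then ran from -0.0745 to 0.4157 for H2ac7, -0.1686 to 0.6708 for H2ac8, -0.1081 to 0.5185 for H2ac12, -0.1091 to 0.2129 for H2bc4, -0.121 to 0.2085 for H2bc23, -0.0525 to 0.2574 for H2bc24, -0.0702 to 0.5812 for H3c11 and -0.324 to 0.1424 for H4c9. H2bc11 ran from 0.8967 to 1.6722, H3c1 from 0.3744 to 1.4944 and H4c4 from 0.1319 to 2.509. The other 132 of 142 values of named members kept their direction, and the cause of the reversals was not tested beyond the smaller number of libraries. Few reads limit most members, since the median member had 10 counts or fewer in each library.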
